A study of Mus musculus with 8 samples.

Results

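The 29 genes described here carry the liver's sterol economy: 18 enzymes of cholesterol synthesis, 5 genes of sterol sensing and SREBP control, 4 genes of sterol uptake and intracellular trafficking, and 2 acyltransferases that esterify cholesterol. They were taken by name from the 22052 genes of the deposited table. Liver RNA came from 8 adult male C57BL6 mice, aged 8 weeks, all of which had received corn oil intraperitoneally. The dKO group held 4 mice of genotype Zfp36l1fl/fl/Zfp36l2fl/fl/Alb-Cre, in which Cre is driven by the albumin promoter, active in hepatocytes. The control group held 4 mice of genotype Zfp36l1fl/fl/Zfp36l2fl/fl, so that controls carry the same floxed alleles without the Alb-Cre transgene. The deleted genes encode proteins that recognise AU-rich stretches in the 3′ untranslated regions (UTRs) of messages and shorten the life of those messages. Each library is a separate mouse, and the livers are numbered 1 to 4 within a group. The labels do not say that these numbers link a dKO mouse with a control mouse.

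Cholesterol is built from acetyl units through mevalonate and squalene, whose chain is closed into a ring and trimmed in a series of oxidations, reductions and demethylations. When sterols are scarce in the endoplasmic reticulum, SCAP carries the SREBP transcription factors to the Golgi, where they are cleaved and freed to activate these enzymes; when sterols are plentiful, INSIG proteins hold SCAP back. Cholesterol taken up in lipoproteins leaves the lysosome through NPC1 and NPC2, and a surplus is stored or secreted as esters made by SOAT enzymes. The liver makes, receives and disposes of much of the body's cholesterol.

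Between 15253827 and 19299556 reads per library were assigned to genes. Values are normalised read counts, that is, reads divided by 1 factor per library, and each change is the dKO mean minus the control mean of log2(value + 0.5), given ± its standard error. For genes with few reads, this scale makes a change look smaller than it is. A gene is called where its limma adjusted p, with Benjamini-Hochberg adjustment over the 20055 genes tested, is under 0.05. The targeted transcript Zfp36l1 had 214, 213, 209 and 267 in dKO livers and 1321, 1336, 1182 and 1642 in control livers, a change of -2.60 ± 0.11 (exact permutation p = 0.0286, 2-sided, the smallest that 70 assignments allow). Zfp36l2 had 696, 794, 771 and 923 in dKO livers and 1722, 1795, 997 and 1819.6 in control livers, a change of -0.96 ± 0.17 with the same exact permutation p. For both genes all dKO livers lay below all controls, and for Zfp36l2 control 3 stood below the other controls. The 8 hepatocyte markers summed to 1348692 to 1474476 in dKO livers and 1143950 to 1258493 in control livers, but the list moved in both directions: 3 rose (Ahsg, Hpx and Tat) and 2 fell (Asgr1 and Hnf4a). Alb, the most abundant of them, was not called. Mitochondrially encoded genes took a smaller share of the values in every dKO liver (3.09% to 3.70%) than in any control liver (4.06% to 4.74%), and the part of this difference in the members' values was not tested. Along the leading principal component, control 4 lay nearer to the dKO livers than controls 1 to 3 did.

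Of the 29 genes, 9 were higher in dKO livers (Mvk, Mvd, Fdps, Fdft1, Sqle, Lss, Srebf1, Npc2 and Soat1), 5 were lower (Tm7sf2, Ebp, Scap, Insig2 and Soat2) and 15 passed in neither direction. Over all genes tested, 38.2% were called, 21.2% as higher and 17.0% as lower. The 9 of 29 higher members were not tested against that 21.2%, and the 5 of 29 lower members are close to the background share. Of the 9, Mvk, Mvd and Sqle lost their call in some of the other settings given below. The median change was 0.16 over the 29 members and 0.03 over all genes tested. For 11 members, 6 higher and 5 lower, the dKO and control livers did not overlap, and over all genes tested the groups did not overlap for 36.4%, a similar share. The other 3 called members, Mvd, Sqle and Srebf1, overlapped by control 3 alone. All 29 members had at least 97 reads in every liver. In bulk liver RNA, fewer cells of a type and less RNA per cell cannot be told apart.

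**Figure D1:**
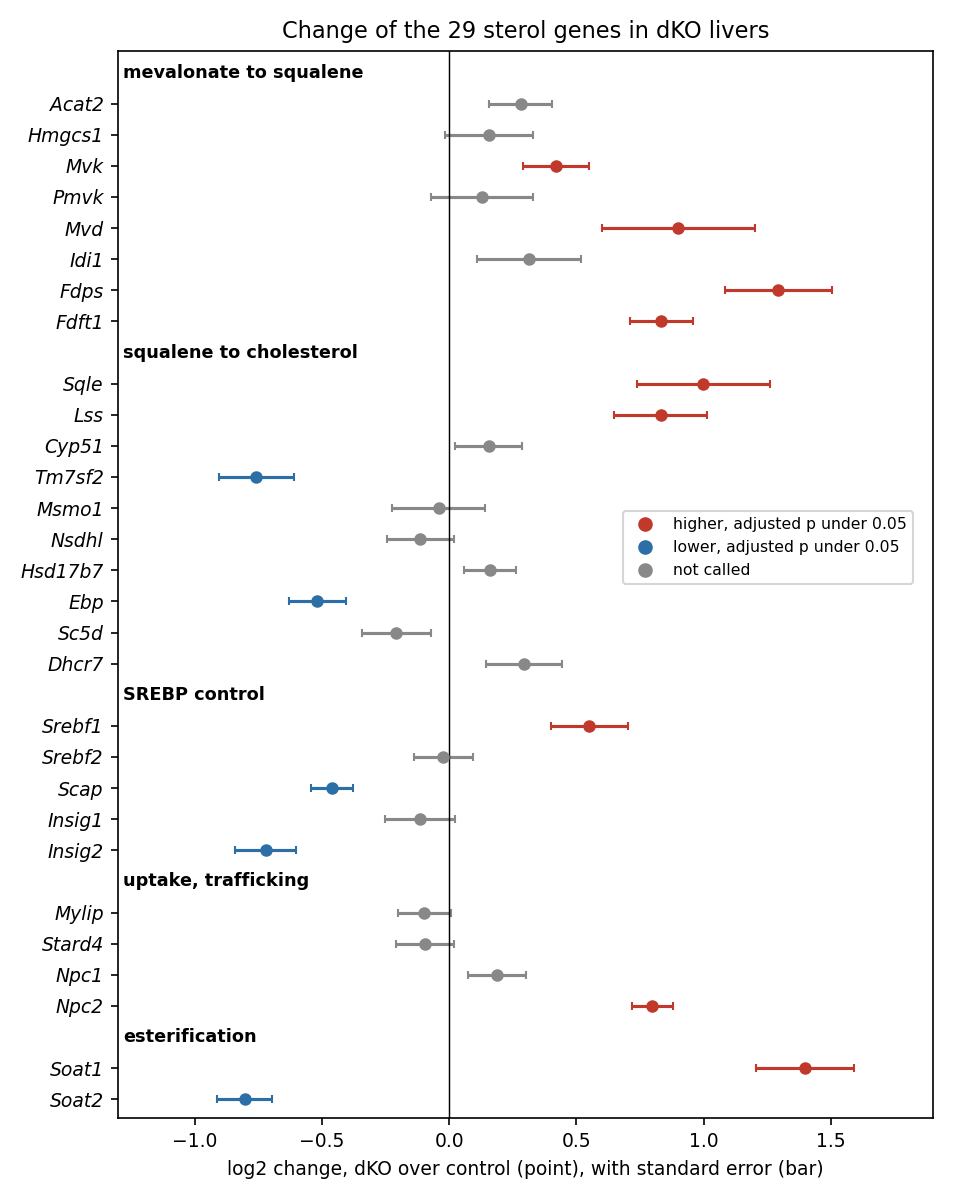
Change of each of the 29 genes, dKO over control, on the log2 scale (point), with its standard error (bar), grouped by role; colours mark the 9 genes called higher, the 5 called lower and the 15 not called. The 6 synthesis enzymes called higher lie between Mvk and Lss in pathway order, Soat1 has the largest rise of the 29 and Soat2 the largest fall.

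Set against exon length, the highest member in both groups was Insig1, with 1790.1 normalised read counts per kb in dKO livers and 1971 in control livers. In dKO livers Fdps came next at 1436 per kb, then Sc5d at 1369 and Hmgcs1 at 1294. In control livers Sc5d came next at 1593 per kb, then Ebp at 1561 and Insig2 at 1403, while Fdps stood at 611. The lowest member in both groups was Soat1, with 34.3 normalised read counts per kb in dKO livers and 13.3 in control livers. These levels use the union of annotated exons as length. The livers of Fdps and Sc5d overlap in the dKO group, as do those of Sc5d and Ebp in the control group.

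Among the 8 enzymes from acetyl-CoA to squalene, 4 rose in dKO livers and none fell, with a median change of 0.37; the number that rose was 2 without dKO 1, dKO 2 or dKO 4 in turn. The steepest was Fdps, farnesyl diphosphate synthase, which makes the branch-point intermediate for sterols and other isoprenoids. Fdps had 5595, 7034, 6607 and 4928 in dKO livers and 1684, 1942, 3777 and 2873 in control livers. Every dKO liver lay above every control liver, although controls 3 and 4 lay well above controls 1 and 2. The change was 1.29 ± 0.21, or 2.45-fold in the group means on that scale (limma adjusted p = 0.000383). Fdft1, squalene synthase, commits farnesyl diphosphate to sterols and had 2809.7, 2853, 2635 and 2886 in dKO livers and 1272, 1398, 2073 and 1634 in control livers. Its 4 dKO livers were nearly level and all above the controls, with a change of 0.83 ± 0.12 (limma adjusted p = 0.000196).

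Upstream, Mvk, mevalonate kinase, had 516, 535, 467 and 546 in dKO livers and 289.6, 389, 456 and 425 in control livers. Its lowest dKO liver, dKO 3, lay just above its highest control liver, control 3, and the change was 0.42 ± 0.13 (limma adjusted p = 0.0213). Without dKO 1, dKO 2 or dKO 4 in turn, its limma adjusted p was 0.0572, 0.0566 and 0.0612. Mvd, mevalonate diphosphate decarboxylase, had 346, 449, 432 and 482 in dKO livers and 120.1, 175, 424 and 297 in control livers. Control 3 lay within the dKO range and control 1 stood lowest of all 8 livers, with a change of 0.90 ± 0.30 (limma adjusted p = 0.0315). The call for Mvd was lost in 9 of 18 other settings, among them edgeR (adjusted p = 0.0563) and DESeq2 (adjusted p = 0.118) on recovered reads.

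The other 4 enzymes of this arm did not pass. Acat2, the cytosolic thiolase of the opening step, had 1139, 1286, 1076 and 1134 in dKO livers and 827, 814, 1252 and 973 in control livers, with a change of 0.28 ± 0.12 (limma adjusted p = 0.0943). Control 3 lay within the dKO range and the other 3 controls lay below it. Hmgcs1, which joins a further acetyl unit to make HMG-CoA, had 4979, 6519.9, 5749 and 6524 in dKO livers and 3818, 4838, 7751 and 5515 in control livers, and here control 3 was the highest of all 8 livers (0.16 ± 0.17, limma adjusted p = 0.517). Idi1, the isopentenyl diphosphate isomerase, had 920.1, 1347, 1065 and 1088 in dKO livers and 563, 876, 1329 and 918 in control livers, with a change of 0.31 ± 0.20 (limma adjusted p = 0.255). Pmvk, phosphomevalonate kinase, ranged over 714 to 858 in dKO livers and 490.4 to 1089.7 in control livers, its control range enclosing all 4 dKO livers (0.13 ± 0.20, limma adjusted p = 0.649).

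From squalene on, the 10 enzymes moved in both directions: 2 rose, 2 fell and 6 passed in neither, with a median change of 0.06; without control 3, the number that rose was 4. The 2 that rose are those that act first. Sqle, squalene epoxidase, had 1255, 1793, 1836 and 1962 in dKO livers and 500.1, 703, 1493 and 965 in control livers. Control 3 again lay within the dKO range, and the change was 1.00 ± 0.26 (limma adjusted p = 0.00909). Lss, lanosterol synthase, which closes the sterol ring, had 1078, 1480.2, 1453 and 1297 in dKO livers and 508, 680.2, 1062 and 815 in control livers. Control 3 lay just below dKO 1, the lowest dKO liver, and the change was 0.83 ± 0.18 (limma adjusted p = 0.00319).

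The 2 that fell act on the ring. Tm7sf2, a reductase of sterol intermediates, had 1529, 1824, 1403 and 1466 in dKO livers and 1951, 2441, 3427 and 2874 in control livers. No dKO liver reached the lowest control, and the change was -0.76 ± 0.15 (limma adjusted p = 0.0013). Ebp, the sterol isomerase that shifts a ring double bond, had 2887, 2608, 2179 and 2377 in dKO livers and 3245, 3345, 4403 and 3428 in control livers. All 4 dKO livers lay below all 4 controls, with a change of -0.52 ± 0.11 (limma adjusted p = 0.00258).

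The 6 ring enzymes that passed in neither direction overlapped between groups. Cyp51, the lanosterol demethylase, ranged over 2604 to 3327 in dKO livers and 2107 to 3507 in control livers (0.16 ± 0.13, limma adjusted p = 0.389). Of the C-4 demethylation enzymes, Msmo1, the methyl sterol monooxygenase, ranged over 2176 to 3027 in dKO livers and 1753 to 3635 in control livers, with control 3 highest and control 1 lowest of all 8 livers (-0.04 ± 0.18, limma adjusted p = 0.888). Nsdhl, the dehydrogenase that follows it, ranged over 815 to 1111 in dKO livers and 806 to 1276 in control livers (-0.11 ± 0.13, limma adjusted p = 0.536). Its partner Hsd17b7, the ketoreductase of that demethylation, ranged over 1277 to 1456 in dKO livers and 1029 to 1427 in control livers (0.16 ± 0.10, limma adjusted p = 0.249). Sc5d, the sterol desaturase, ranged over 5811 to 7732 in dKO livers and 6096 to 9769 in control livers (-0.21 ± 0.13, limma adjusted p = 0.254). Dhcr7, which reduces 7-dehydrocholesterol to cholesterol, had 1722, 1758, 1824 and 1826 in dKO livers and 1110.0, 1276, 2073 and 1511 in control livers. Its 4 dKO livers were close together, above controls 1, 2 and 4 and below control 3 (0.30 ± 0.15, limma adjusted p = 0.14).

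The control livers differed among themselves in one direction across the pathway. Control 3 was the highest control for 17 of the 18 enzymes, and control 1 the lowest control for 16 of 18. For comparison, control 3 was the highest control for 24.6% and control 1 the lowest for 22.9% of the 14132 genes that averaged at least 10. Hsd17b7, highest in control 2, and Acat2 and Pmvk, lowest in control 2, were the exceptions. Measured from the control mean, the median enzyme stood at 0.05, 0.32, 0.25 and 0.28 (log2) in dKO livers 1 to 4, and at -0.40, -0.11, 0.46 and 0.06 in control livers 1 to 4. For 9 enzymes (Hmgcs1, Pmvk, Cyp51, Tm7sf2, Msmo1, Nsdhl, Ebp, Sc5d and Dhcr7), control 3 lay above every dKO liver. Control 3 also had the lowest Zfp36l2 of the controls, and the part of this difference in the enzyme values was not tested.

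**Figure D2:**
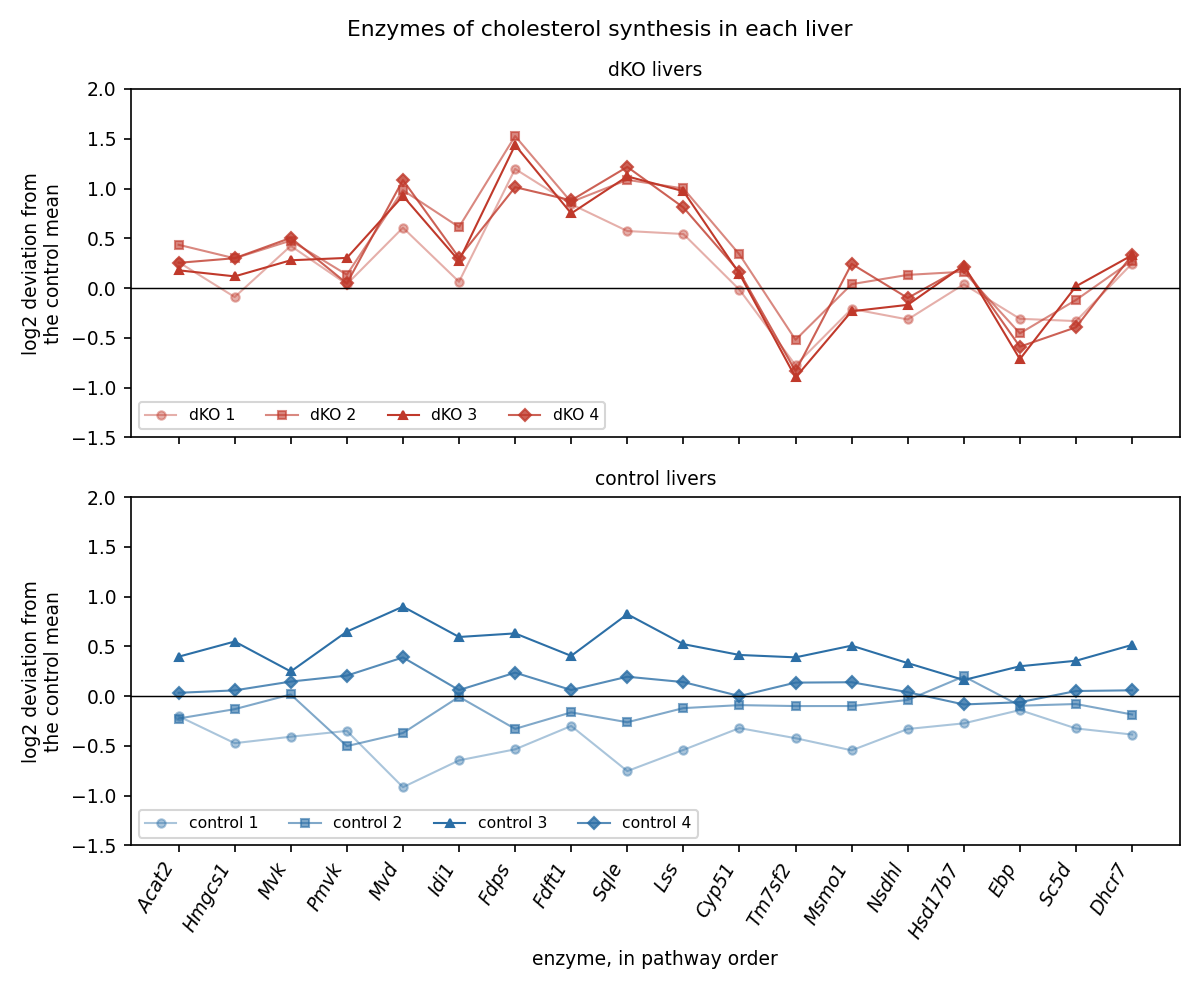
Deviation of each enzyme from the control mean (y axis, log2) in pathway order (x axis), with 1 line for each dKO liver in the upper panel and for each control liver in the lower panel. The dKO lines lie well above 0 at Mvd, Fdps, Fdft1, Sqle and Lss and below it at Tm7sf2 and Ebp, whereas the control lines run roughly parallel, with control 3 above the control mean for 18 of 18 enzymes.

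Several results depend on control 3. With all controls, every dKO liver lay above every control for 4 enzymes (Mvk, Fdps, Fdft1 and Lss), and with control 3 left out this held for 9, with Acat2, Mvd, Idi1, Sqle and Dhcr7 added. Control 3 was the highest control for 17 of 18 enzymes, and leaving out any control can only add to this count. Without control 3, limma called 13 members higher and 5 lower. The 4 added were Acat2 (0.41, limma adjusted p = 0.00586), Idi1 (0.51, limma adjusted p = 0.0394), Cyp51 (0.29, limma adjusted p = 0.047) and Dhcr7 (0.47, limma adjusted p = 0.00413). Among all genes tested, limma called 3884 higher and 3083 lower without control 3, and 4244 and 3410 with all livers. Without control 1, the lowest control for 16 of 18 enzymes, the same 4 changed by 0.214, 0.0981, 0.0488 and 0.167 and were not called. Mvd then lost its call (0.59, limma adjusted p = 0.0853). Over the 18 other settings the number of members called higher ran between 7 and 13, and 5 members were called lower in each. Of the 11 members that are not synthesis enzymes, control 3 was the highest control for 6 (Srebf1, Srebf2, Scap, Insig1, Stard4 and Npc2) and the lowest for 3 (Mylip, Npc1 and Soat1).

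In the synthesis enzymes, the dKO livers were closer to each other than the controls were. The range over the 4 livers was narrower in the dKO group than in the control group for 18 of 18 enzymes, against 52.7% of all genes that averaged at least 10. The enzymes share the same livers, with control 3 the highest control for 17 and control 1 the lowest for 16. The 18 are therefore not separate observations of spread. The median range was 0.40 (log2) over the enzymes in dKO livers and 0.86 in control livers. Leaving out control 3, the dKO range was narrower for 14 enzymes, all but Cyp51, Nsdhl, Ebp and Sc5d, and for 40.4% of all genes. Leaving out control 1, it was narrower for 16 enzymes, all but Nsdhl and Ebp, and for 43.1% of all genes. Leaving out any other single liver, it was narrower for 18. The share of all genes was then 61.8% to 65.7% without a dKO liver, 42.5% without control 2 and 39.2% without control 4. With 1 liver left out the groups differ in their number of livers, and a range over fewer livers can only stay the same or narrow.

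**Figure D3:**
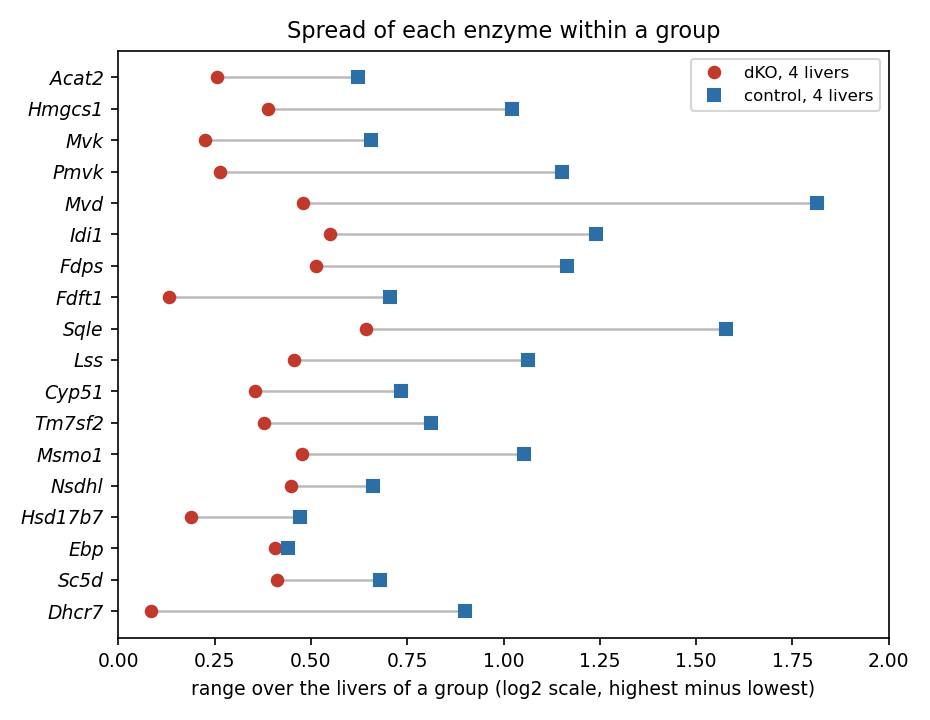
Range of each enzyme over the 4 livers of a group (x axis, highest minus lowest, log2 scale), for dKO (circle) and control livers (square), with the enzymes in pathway order from the top. Each dKO point lies left of its control point, with medians of 0.40 in dKO and 0.86 in control livers; the gap is smallest at Ebp.

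SREBP factors act at sterol regulatory elements in promoters, commonly beside a CCAAT box, so the 250 bases before the RefSeq start of each gene (GRCm38.p6) were searched on both strands. A gene with several RefSeq starts counts if any of them holds the letters. The RefSeq promoter table held 23 of the 29 members. The promoters of Fdps, Fdft1, Sqle, Soat2, Npc1 and Stard4 were therefore not searched. Of the synthesis enzymes that rose, only Mvk, Mvd and Lss were searched. The core TCACCCCA was present in 2 of 23, Hmgcs1 at -137 and Srebf2 at -162, and in 1.68% of the 13098 tested genes in the table. CCAAT was present in 21 of 23, all but Acat2 and Scap, and in 39.5% of tested genes. The GC box GGGCGG was present in 21 of 23, all but Pmvk and Soat1, and in 57.3% of tested genes. The promoters of Hmgcs1 and Srebf2, which hold the core, are shown with those of Lss, which rose, and Tm7sf2, which fell, neither of which holds it. Capitals mark the core and each CCAAT box, written ATTGG where it lies on the other strand.
Hmgcs1, chr13:119690101-119690350, plus strand: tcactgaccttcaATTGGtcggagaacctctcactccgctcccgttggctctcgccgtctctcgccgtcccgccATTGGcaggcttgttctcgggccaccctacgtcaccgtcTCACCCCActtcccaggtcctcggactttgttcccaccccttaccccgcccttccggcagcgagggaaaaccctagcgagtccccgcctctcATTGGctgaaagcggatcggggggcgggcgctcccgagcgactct
Srebf2, chr15:82147019-82147268, plus strand: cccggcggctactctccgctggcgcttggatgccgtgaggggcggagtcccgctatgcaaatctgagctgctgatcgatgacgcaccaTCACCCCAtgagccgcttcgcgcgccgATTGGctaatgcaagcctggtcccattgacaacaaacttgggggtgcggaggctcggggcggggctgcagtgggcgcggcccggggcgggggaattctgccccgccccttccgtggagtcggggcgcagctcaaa
Lss, chr10:76531355-76531604, plus strand: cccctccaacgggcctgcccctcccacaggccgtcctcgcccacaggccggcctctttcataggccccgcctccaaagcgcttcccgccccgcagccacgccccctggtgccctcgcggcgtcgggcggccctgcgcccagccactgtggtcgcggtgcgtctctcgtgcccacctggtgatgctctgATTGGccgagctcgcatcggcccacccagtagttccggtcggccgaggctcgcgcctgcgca
Tm7sf2, chr19:6067851-6068100, minus strand: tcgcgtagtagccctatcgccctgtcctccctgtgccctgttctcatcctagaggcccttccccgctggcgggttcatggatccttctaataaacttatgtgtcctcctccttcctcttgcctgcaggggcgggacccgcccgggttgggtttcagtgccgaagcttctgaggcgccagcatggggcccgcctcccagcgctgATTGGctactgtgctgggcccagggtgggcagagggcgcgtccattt
A match is a match of letters only, and its absence says that these letters are not in this window. The bases that follow the RefSeq start of Hmgcs1 were not found in a GENCODE M21 transcript of that gene. Of the 4 genes shown, the 2 with the core, Hmgcs1 and Srebf2, were not called.

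In the control of SREBP, 1 of 5 genes rose and 2 fell, with a median change of -0.11. Srebf1, which encodes SREBP-1, the factor most tied to fatty acid synthesis in liver, had 4911, 6419, 7453 and 4646 in dKO livers and 3311, 4009, 4894 and 3640.3 in control livers. It was highest in dKO 3, and dKO 4 lay below control 3 (0.55 ± 0.15, limma adjusted p = 0.0123). Srebf2, which encodes SREBP-2, the factor most tied to cholesterol synthesis, had 1267, 1207, 1388 and 1489 in dKO livers and 1134, 1249.6, 1705 and 1393 in control livers. The groups overlapped throughout, with a change of -0.02 ± 0.12 (limma adjusted p = 0.903).

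Scap, the sterol-sensing escort of the SREBPs, had 2379, 1852, 2009.8 and 2181 in dKO livers and 2819, 2833, 3029 and 2852 in control livers. Every dKO liver was below every control, and the change was -0.46 ± 0.08 (limma adjusted p = 0.000755). Insig2, which retains SCAP in the endoplasmic reticulum, had 2984, 3065, 3122 and 2544 in dKO livers and 5768, 5372, 4503 and 3843 in control livers. All dKO livers were below all controls, and among the controls it was controls 3 and 4 that lay nearest to them (-0.72 ± 0.12, limma adjusted p = 0.000428). Insig1, the related retention factor that is itself an SREBP target, had 4969, 5510.3, 6108 and 5560.4 in dKO livers and 4640.3, 5265, 7582 and 6895 in control livers, with overlapping groups and a change of -0.11 ± 0.14 (limma adjusted p = 0.551). The 2 INSIG genes thus differ in call, and the ratio of Insig1 to Insig2 within a liver was 1.67, 1.80, 1.96 and 2.19 in dKO livers against 0.805, 0.98, 1.68 and 1.79 in control livers. That difference of ratios did not pass (exact permutation p = 0.114, 2-sided; 0.114 adjusted over 4 ratios), and the groups overlapped.

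**Figure D4:**
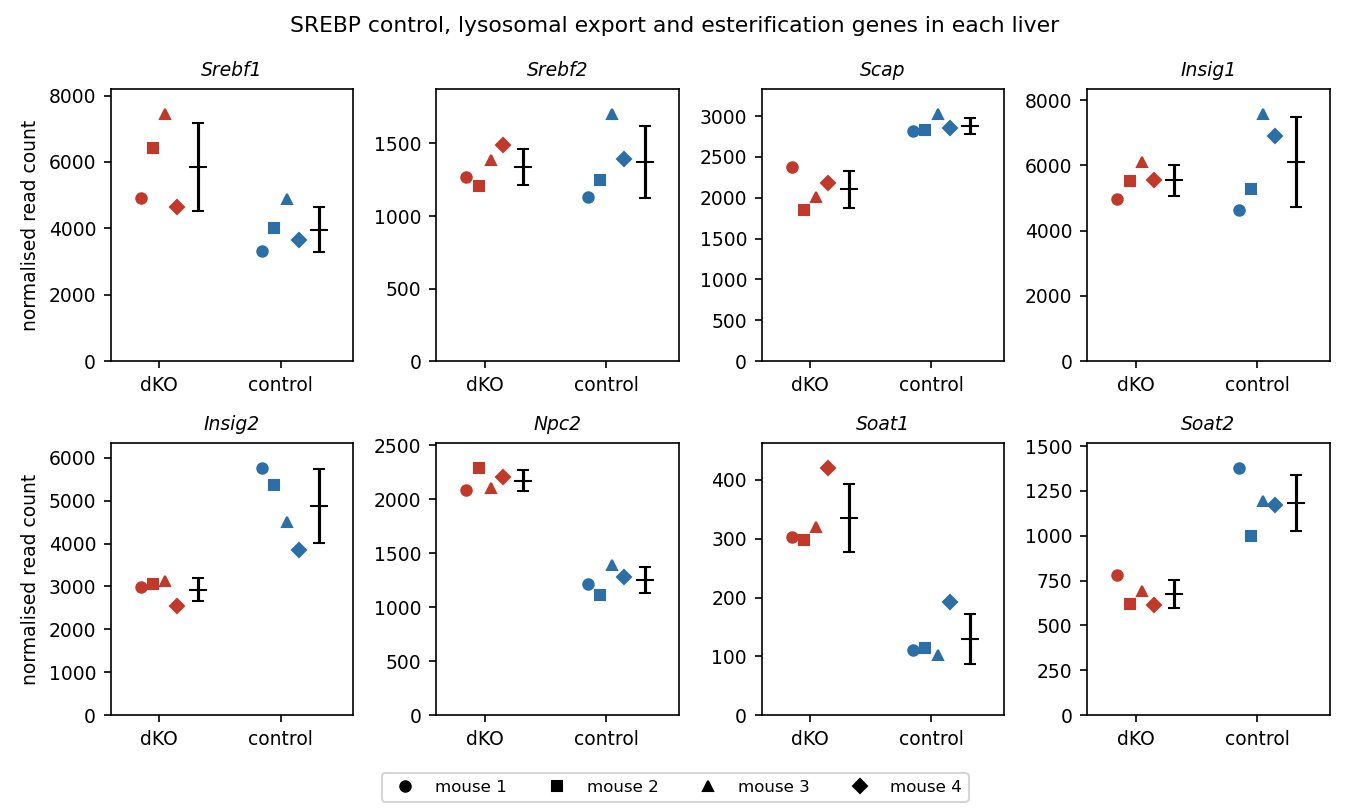
Normalised read count (y axis, from 0) of 8 genes of SREBP control, lysosomal export and esterification in each liver, dKO left and control right; the cross bar is the mean and the whiskers the SD of 4 livers, and a shared marker shape does not pair mice. Scap, Insig2 and Soat2 lie lower and Npc2 and Soat1 higher in all 4 dKO livers, while Srebf2 and Insig1 overlap.

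Of the 4 genes of uptake and trafficking, 1 rose and none fell. Npc2, the soluble lysosomal protein that hands cholesterol to NPC1, had 2088, 2293, 2101 and 2204 in dKO livers and 1219, 1109, 1396 and 1281 in control livers. The groups were tight and far apart, with a change of 0.80 ± 0.08 (limma adjusted p = 8.54e-06). Npc1, its membrane partner, had 3984, 2643, 3118 and 3252 in dKO livers and 2929, 3049, 2440.2 and 2899 in control livers. The groups overlapped, dKO 1 being highest (0.19 ± 0.11, limma adjusted p = 0.222); with quantile normalisation Npc1 was called higher (0.33, limma adjusted p = 0.0281). Mylip, the ubiquitin ligase that marks lipoprotein receptors for degradation, ranged over 289.6 to 325 in dKO livers and 283 to 369.7 in control livers (-0.10 ± 0.10, limma adjusted p = 0.502). Stard4, a cytosolic sterol carrier, ranged over 1717 to 2187 in dKO livers and 1613 to 2322 in control livers (-0.09 ± 0.11, limma adjusted p = 0.557). The ratio of Npc1 to Npc2 was 1.91, 1.15, 1.48 and 1.48 in dKO livers against 2.40, 2.75, 1.75 and 2.26 in control livers (exact permutation p = 0.0571, 2-sided; 0.0762 adjusted over 4 ratios). Here dKO 1 lay above control 3, and the other dKO livers lay below every control.

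The 2 esterification genes moved in opposite directions. Soat1, the acyltransferase found in many cell types, macrophages among them, had 303, 298, 320.2 and 421 in dKO livers and 111, 114, 102 and 193 in control livers. All dKO livers were above all controls, with dKO 4 and control 4 the highest of their groups, and the change was 1.40 ± 0.19 (limma adjusted p = 0.000102). Soat2, the acyltransferase of hepatocytes and enterocytes that supplies esters for lipoproteins, had 782, 619, 692 and 615 in dKO livers and 1379, 997, 1192 and 1169 in control livers. All dKO livers were below all controls, with a change of -0.80 ± 0.11 (limma adjusted p = 9.15e-05). Per kb of exon, Soat2 remained the higher of the pair, with 306 normalised read counts per kb in dKO livers and 535 in control livers, against 34.3 normalised read counts per kb in dKO livers and 13.3 in control livers for Soat1.

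The ratio of Soat1 to Soat2 within a liver, in normalised read counts, was 0.387, 0.481, 0.463 and 0.684 in dKO livers against 0.0804, 0.114, 0.0856 and 0.165 in control livers. The groups did not overlap, and the ratio was 0.504 ± 0.127 in dKO livers and 0.111 ± 0.0389 in control livers (SD, n = 4 each), a difference of 2.20 on the log2 scale (exact permutation p = 0.0286, 2-sided, the smallest possible; 0.0762 adjusted over 4 ratios). The remaining ratio, Srebf1 to Srebf2, was 3.88, 5.32, 5.37 and 3.12 in dKO livers against 2.92, 3.21, 2.87 and 2.61 in control livers. Only dKO 4 lay within the control range (exact permutation p = 0.0571, 2-sided; 0.0762 adjusted over 4 ratios).

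Markers of other liver cells also differed between the groups, as Soat1 and Npc2 did. Of 12 monocyte and macrophage markers, 11 rose and none fell, and their summed level was 10602 to 15676 in dKO livers and 2952 to 7735 in control livers. Their sum was highest in dKO 4 and control 4 within each group, as was Soat1, whereas Npc2 was highest in dKO 2 and in control 3, the control with the lowest sum. This order was not particular to these markers. The hepatocyte marker sum was also highest in dKO 4 and control 4. The neutrophil, stellate and biliary sums given below were highest in dKO 2 and control 4. The Kupffer cell sum was highest in dKO 4 but lowest in control 4. Of 6 Kupffer cell markers, 2 rose and 1 fell, with sums of 5693 to 10821 in dKO livers and 4904 to 6153 in control livers. All 6 neutrophil markers rose (sums of 523 to 832 in dKO livers and 70.9 to 324 in control livers), with Ly6g and Mpo at 0 in every control liver and Camp at 0 in controls 1 and 4. The call of Ly6g rested on values of only 0.925 to 4.26 in dKO livers and held in 9 of 15 other settings. All 7 biliary markers rose, with sums of 7832 to 12166 in dKO livers and 636 to 1526 in control livers. Most of that sum was Spp1, and the other 6 biliary markers summed to 355 to 663 in dKO livers and 159.9 to 279 in control livers. A rise was also seen for 5 of 8 stellate cell markers (19157 to 25149 in dKO livers and 3897 to 11434 in control livers). Of 6 endothelial markers 1 rose and 2 fell, and of 7 lymphocyte markers 1 rose and 3 fell. The part of these cells in the Soat1 and Npc2 values was not tested.

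Because the products of the deleted genes bind AU-rich elements, the 3′ UTRs of the members (GENCODE M21, GRCm38) were searched for the core TATTTAT on the sense strand. It was present in 8 of 29 members (27.6%) and in 30.1% of 15424 tested genes with a 3′ UTR. It was present in 3 of 9 members that rose, 1 of 5 that fell and 4 of 15 that passed in neither direction, and in none of the 6 enzymes that rose. The sites in the called members are shown with 10 bases on either side, the core in capitals.
Srebf1, chr11:60199589-60199615, minus strand: aaaatgaaatTATTTATaacttcagtt
Npc2, chr12:84756243-84756269, minus strand: tcctcgttttTATTTATaccagctaga
Soat1, chr1:156425080-156425106, minus strand: tttccctgtgTATTTATtctctcttta
Insig2, chr1:121304506-121304532, minus strand: cacactactcTATTTATtattctgtct
Insig2, chr1:121304859-121304885, minus strand: gcctgccatgTATTTATgggttaagtc
Insig2, which fell, thus holds 2 such sites, and Insig1, which was not called, also holds 2. The other members with the core are Hsd17b7, Sc5d and Mylip, none of them called. A match of letters does not show that a protein binds there.

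Genes around the members were read from lists of the same pathways. Among all genes tested, 21.2% were called higher and 17.0% lower, and the counts of these lists were not tested against those shares. Of 16 genes of SREBP processing and sterol sensing, 5 rose (Mbtps2, Rnf145, Erlin1, Spring1 and Tmem97) and 6 fell (Marchf6, Faf2, Erlin2, Aup1, Pgrmc1 and Vcp), with a median change of -0.13. Rnf145, an endoplasmic reticulum ubiquitin ligase described as acting on SCAP, averaged 1171 ± 105 in dKO livers and 389 ± 51.7 in control livers (SD, n = 4 each), a change of 1.59 (limma adjusted p = 2.5e-07). Erlin1, a scaffold of sterol-regulated degradation, averaged 1139 ± 58.5 in dKO livers and 811 ± 85.0 in control livers (0.50, limma adjusted p = 0.000717). For both genes the groups did not overlap.

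Of 11 genes of the sterol-activated receptor LXR and its targets, 7 rose (Abca1, Abcg1, Abcg5, Pltp, Arl4c, Smpdl3a and Scd2) and 2 fell (Abcg8 and Lpcat3), with a median change of 0.44. Abcg1, a sterol exporter, averaged 431 ± 92.9 in dKO livers and 124 ± 6.84 in control livers (SD, n = 4 each; 1.77, limma adjusted p = 1.1e-06). Scd2, a fatty acid desaturase, averaged 805 ± 95.1 in dKO livers and 144 ± 68.5 in control livers (SD, n = 4 each; 2.57, limma adjusted p = 3.3e-06). Abcg5 and Abcg8, which encode the 2 parts of the biliary sterol exporter, differed in direction, with changes of 0.38 and -0.96. Their annotated stretches overlap on opposite strands, and with the strand setting not given, they may share reads. The receptor genes Nr1h2 and Nr1h3 were not called. Abcg1, Abca1 and Pltp are also expressed by macrophages, whose markers moved as given above. The part of these cells in the values of the LXR targets was not tested.

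Srebf1 has its own list, the lipogenic genes tied to SREBP-1. Of 14, 7 rose (Acly, Acaca, Fasn, Elovl6, Scd1, Thrsp and Mid1ip1) and 2 fell (Fads1 and Me1), with a median change of 0.39. The number that fell was 0 without dKO 2, dKO 4 or control 3, was 1 without dKO 1, control 2 or control 4, and was 4 without dKO 3. Fasn, fatty acid synthase, had 11351, 15573, 39359 and 11128 in dKO livers and 2979.9, 4432, 6321 and 5644 in control livers. It was highest in dKO 3, as Srebf1 was, and all dKO livers lay above all controls (1.84, limma adjusted p = 0.00112). Elovl6, a fatty acid elongase, had 2259.6, 2903, 5712 and 2006 in dKO livers and 609, 961, 929 and 823 in control livers, again highest in dKO 3 (1.85, limma adjusted p = 0.000144).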

How the data were processed

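RNA was sequenced from 1 liver per mouse. The submitters' processing notes name DESeq2, featureCounts 1.5.0-p3, HISAT2 2.0.5 and fastp, with build mm10 and no roles. Annotation, strand setting and filters: not given in the sources used here, so overlapping and antisense genes can share reads. The deposited values are a signal per gene: although the table is named for FPKM, the values are whole multiples of 1 step per library, that is, read counts that the authors divided by 1 factor per library, and whole reads were recovered for nearly all genes (within 0.01 of a whole number). Symbols matched 21796 of 22052 identifiers, and all 29 members. Genes with a mean of 0.5 or more were tested on log2(value + 0.5) with limma 3.58.1 (R 4.3.3, eBayes with a trend, 2-sided), group as the only term. Ratios within a liver were tested by exact permutation, and adjusted over 4 ratios. The code was tested on simulated data. The value of 1 marker gene is not reported here. The members, lists and tests were chosen with earlier results of these data known; the named list genes are the 2 called genes per list that had the lowest adjusted p. Sequences are from RefSeq (GRCm38.p6) and GENCODE M21. Alternatives were pseudocounts of 0.1 and 1, no filter, a mean of 10, TMM, quantile normalisation, robust variances, a mouse-number block, leaving out each liver, and edgeR 4.0.16 and DESeq2 1.42.0 on recovered reads.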

Additional observations from a re-analysis of the deposited data

Results flagged for a closer look

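In 70 groups of 4 livers (29 members, 2 targeted genes and 4 ratios, each in dKO and in control livers), 5 held 1 liver far from the other 3; chance alone gives about 1 in 20. Ebp was 4403 in control 3 and 3245 to 3428 in the other controls. Scap was 3029 in control 3 and 2819 to 2852 in the other controls. Soat1 was 193 in control 4 and 102 to 114 in the other controls. Of the targeted genes, Zfp36l1 was 267 in dKO 4 and 209 to 214 in the other dKO livers, and Zfp36l2 was 997 in control 3 and 1722 to 1820 in the other controls. In Ebp and Scap the distant control lay away from the dKO livers, and in Soat1 it lay on their side.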

How the results depend on the processing

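Over 18 other settings, 11 of the 14 called members (Fdps, Fdft1, Lss, Tm7sf2, Ebp, Srebf1, Scap, Insig2, Npc2, Soat1 and Soat2) kept their direction and call in each. Of the other 3, Mvk lost its call without dKO 1, 2 or 4, Sqle with robust variances (limma adjusted p = 0.0685), and Mvd in 9 settings (adjusted p of 0.0563 to 0.124). Of 522 member values, 14 changed sign, all of genes not called. With 1 liver left out, Hmgcs1 ran between -0.00162 (without control 1) and 0.339, Pmvk between -0.0375 (without control 2) and 0.346, Msmo1 between -0.222 and 0.128, and Srebf2 between -0.108 and 0.0883. Msmo1 was above 0 without dKO 1, dKO 3, control 3 or control 4, and Srebf2 without dKO 1, dKO 2 or control 3. With quantile normalisation, Msmo1 was 0.0798, Sc5d 0.0798, Srebf2 0.03, Insig1 0.118 and Stard4 0.00467. Quantile normalisation moved the median of all genes to -0.0795 from 0.031 and the share of calls that are higher to 45.8% from 55.4%, with 10 members higher and 5 lower.

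Counts by role or list moved as follows. Leaving out 1 liver gave 2 to 6 mevalonate enzymes higher (4 with all livers), 2 to 4 ring enzymes higher (2), 2 to 4 isoprenoid genes lower (2), 1 to 4 transport genes lower (3) and 0 to 4 lipogenic genes lower (2). Robust variances gave 1 ring enzyme higher, 4 lipogenic genes higher (7) and 0 lower. Quantile normalisation gave 2 uptake and trafficking genes higher (1), 4 isoprenoid genes lower and 0 lipogenic genes lower. The filter at a mean of 10 and edgeR gave 1 oxysterol gene higher (2), and edgeR and DESeq2 each gave 1 lipogenic gene lower. The cause of these differences was not tested.

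The labels give no pairing of the livers by mouse number. Deviations of same-numbered mice correlated at 0.0324, -0.0693, 0.0375 and 0.0769, and those of differently numbered mice at -0.123 to 0.0578. These correlations cannot show that no pairing exists. A fit with the mouse number as a replicate block called 4021 genes higher and 3112 lower, and 9 members higher and 5 lower, with no member's call changed. For the 4 ratios within a liver, the paired exact test cannot go below 0.125. With 4 livers a group, an exact test cannot go below 0.0286, or 0.0571 with 1 liver left out. The lowest member value in any liver rests on 97 reads.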

Other observations

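The list counts given here were likewise not tested against the shares of all genes tested, 21.2% higher and 17.0% lower. Farnesyl diphosphate, the product of Fdps, also feeds the isoprenoid branch that makes dolichol, ubiquinone side chains and protein prenyl groups. Of 14 genes of that branch, 3 were higher in dKO livers (Nus1, Rabggta and Icmt) and 2 were lower (Pdss2 and Fnta), with a median change of -0.01; the number lower was 4 without control 4. Nus1, a subunit of the enzyme that lengthens the dolichol chain, averaged 1441 ± 97.6 in dKO livers and 993 ± 75.7 in control livers (SD, n = 4 each; 0.54, limma adjusted p = 0.000203). Rabggta, a subunit of the Rab prenyltransferase, averaged 754 in dKO livers and 569 in control livers (0.40, limma adjusted p = 0.00124). Ggps1, which draws directly on farnesyl diphosphate, was not called.

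Of 19 genes of intracellular sterol transport, 4 were higher (Osbpl1a, Osbpl3, Gramd1a and Gramd1b) and 3 were lower (Scp2, Nceh1 and Lima1); the number lower was 1 without dKO 2, dKO 3 or control 1 in turn. Osbpl3, an oxysterol-binding protein relative, averaged 491 ± 130 in dKO livers and 23.6 ± 10.6 in control livers (SD, n = 4 each; 4.42, limma adjusted p = 2.8e-07). Gramd1a, which moves cholesterol from the plasma membrane to the endoplasmic reticulum, averaged 536 in dKO livers and 356 in control livers (0.59, limma adjusted p = 0.000143).

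Of 7 genes that form or remove oxysterols, 2 were higher (Ch25h and Sult2b1) and 4 were lower (Cyp27a1, Cyp7b1, Cyp39a1 and Hsd3b7), with a median change of -0.92. Cyp7b1, the oxysterol hydroxylase of the acidic bile acid route, averaged 141 ± 29.7 in dKO livers and 1913 ± 566 in control livers (SD, n = 4 each; -3.74, limma adjusted p = 5.1e-08). Hsd3b7, an enzyme of bile acid synthesis, averaged 3107 ± 35.1 in dKO livers and 13294 ± 487 in control livers (SD, n = 4 each; -2.10, limma adjusted p = 1.9e-09). Both had all dKO livers below all controls.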
